A study of Mus musculus with 28 samples.

Results

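Protein-coding genes were compared between WT5, a wild-type mIMCD-3 line grown from 1 sorted cell, and the polyclonal wild-type mIMCD-3 cells it is set against. The genes described were those annotated as protein-coding, with 1000 or more exon bases and a mean of 1 TPM or more in at least 1 of the 2 lines. TPM is a gene's length-scaled share of a library's transcripts, set to a fixed total. Of 45706 gene identifiers in the deposited tables, 45143 were in the annotation, 21519 of these were protein-coding, 19693 had 1000 or more exon bases and 11130 met every criterion. Of the 11130, 10323 reached 1 TPM in both lines, 552 in WT5 alone and 255 in polyclonal cells alone. Another 270 protein-coding genes passed the level but were too short.

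mIMCD-3 is an epithelial cell line derived from the inner medulla's collecting ducts in a mouse that carried SV40 early-region genes. The 8 libraries compared were 4 of the polyclonal wild-type cells and 4 of WT5, none of them edited or treated, and the comparison asks how far a single wild-type clone departs from the uncloned population. Another 20 libraries came from 5 subclones, 4 libraries each, every subclone started from 1 cell sorted out of WT5 and expanded for weeks. Cells of all 7 groups grew in DMEM:F12 with fetal bovine serum and were harvested for RNA some days after reaching full confluency. WT5 and each subclone are single clones, so a difference from them describes that clone. The polyclonal libraries were sequenced from short single-end reads and the WT5 libraries from longer paired-end reads at another time, so read layout, run and cell line cannot be told apart. The layout of the subclone libraries was not given in the sources used here. The study calls the 4 libraries of a group biological replicates in its methods and technical ones in a legend, so the p-values measure the spread between these libraries, which may be technical.

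The inner medullary collecting duct is the last stretch of the nephron's tubing, where vasopressin sets water permeability and the epithelium tolerates high osmolality. Its principal cells carry a primary cilium, sit on a basement membrane of type IV collagen, laminin and nidogen, and seal their borders with claudins. A cultured line is a population of such cells, and a clone grown from 1 of them passes on that cell's expression state and chromosome content. The genes are taken here by function: the matrix under the cells, the growth factors and ligands they release, their junctions, their transport proteins, their stress pathways and their metabolism.

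The labelled cell type held against its markers in part. Krt8, an epithelial keratin, was listed at 323 to 382 TPM in polyclonal cells and 963 to 1048 TPM in WT5. Cdh16, the kidney-specific cadherin, was listed at 29.0 to 32.8 and 86.9 to 91.1 TPM, and the collecting duct factors Hoxb7, Pax2 and Pax8 were present in both lines. Of 17 collecting duct markers 13 reached 1 TPM in polyclonal cells and 10 in WT5, where Gata3 (4.08 and 0.04 TPM), Avpr2 (10.6 and 0.06 TPM) and Scnn1a (1.1 and 0.57 TPM) were below it. Aqp2, the vasopressin-regulated water channel that defines principal cells, was at 0 in all 8 libraries. Summed markers of intercalated cells stayed at or below 1.85 TPM in polyclonal cells and 0.16 TPM in WT5, those of fibroblasts at or below 2.96 TPM and those of endothelium at or below 1.04 TPM in both lines. Proximal tubule markers summed to 5.15 to 6 and 4.28 to 5.84 TPM. Loop of Henle markers summed to at most 0.14 TPM in polyclonal cells and 3.22 to 3.58 TPM in WT5, through Umod. The blood marker sum was 12.6 to 90.1 TPM in polyclonal cells and 38.7 to 44.9 TPM in WT5, most of the latter from Csf1r, while Ptprc, which defines leukocytes, was at or below 0.08 TPM in all 8. In polyclonal replicate 1, Hbb-bs, a hemoglobin chain, was at 77.48 TPM. The part of these markers in the results was not tested, and without polyclonal replicate 1 the calls below numbered 1241 higher and 990 lower. In bulk RNA, fewer cells that express a gene and less RNA of it per cell cannot be told apart. The tables give no read counts, so depth is unknown.

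Most shifts between WT5 and polyclonal cells were moderate. Each library was centred on its own median over the 11130 genes, and differences are given as WT5 minus polyclonal on the log2(TPM + 0.1) scale, which understates the change of genes near 0. Which line is which follows the names of the deposited columns. Signs in a table of the study may run the other way, and if the column names were exchanged every rise would be a fall. For 2212 of the 2268 genes called below, all 5 subclones differed from the polyclonal columns in the same direction as WT5. The subclones were grown from cells sorted out of WT5. The same polyclonal libraries had picked these genes, which favours agreement in sign, and a gene nearer the polyclonal level also counts. The sign alone thus does not test the column names. A gene was called where limma gave a Benjamini-Hochberg adjusted p below 0.01 over the 18320 genes tested and the centred difference passed 1. Of the 11130 genes, 2268 were called, 20.4% against 32.8% of all genes tested. In WT5, 1266 genes were higher, 11.4% against 9.54% of all tested, and 1002 were lower, 9% against 23.2%. Shifts of 1 to 3 made up 957 of the rises and 824 of the falls, and larger ones 309 and 178. The level filter favours a difference in genes at 1 TPM in only 1 line, of which 83.2% (WT5 alone) and 92.9% (polyclonal cells alone) were called. Among the 10323 at 1 TPM in both, 807 were higher and 765 lower. WT5 and polyclonal libraries did not overlap in TPM for 8660 genes, 77.8%.

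The split between rises and falls depended on centring. Without it the median gene stood 0.29 higher in WT5 in log2 units. The WT5 library medians were higher on average by 0.33, a ratio of 1.26. On that scale 1990 genes were called higher and 582 lower, so that rises made up 77.4% of calls in place of 55.8%. Quantile normalization gave 1813 and 628. Genes below 5 TPM were called in 52.2% of cases, those of 5 to 20 TPM in 20.3%, those of 20 to 100 TPM in 11.7% and those above 100 TPM in 14.7%. These shares include the genes at 1 TPM in only 1 line, most of which were called. How far such genes raise the share at low level was not tested. By exon length the called share ran from 18.8% to 25.6%, without a steady order.

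**Figure D1:**
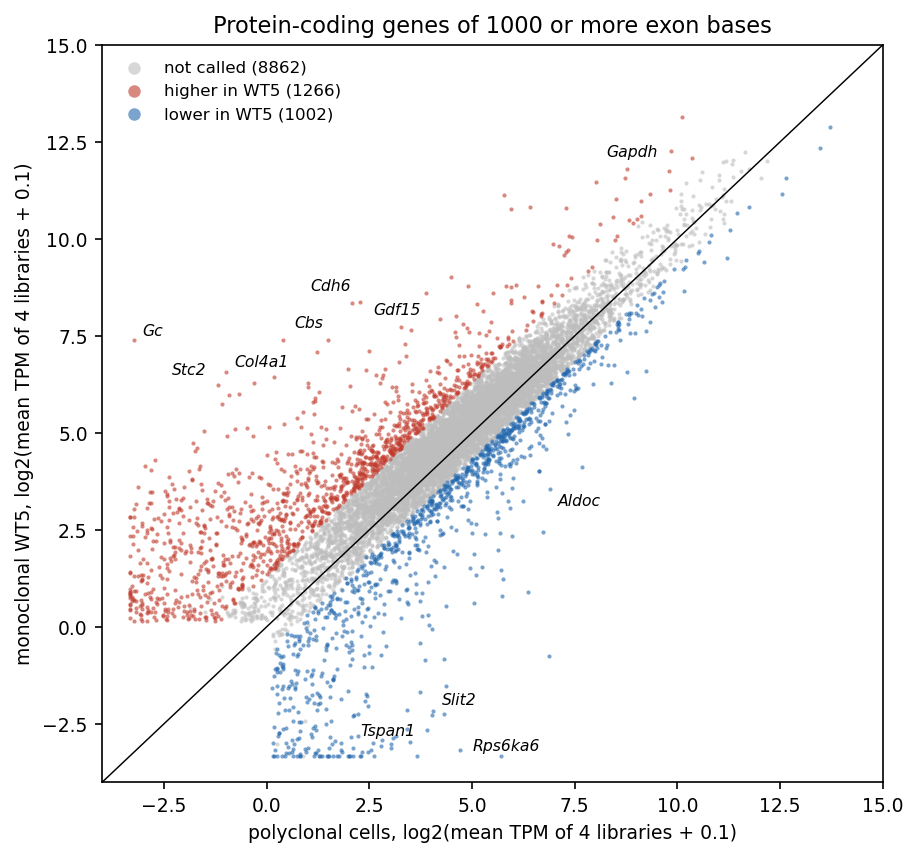
Mean level in polyclonal cells (x axis) against mean level in WT5 (y axis), both as log2(mean TPM of 4 libraries + 0.1), 1 point for each of the 11130 genes, with colors for genes called higher or lower in WT5 and the line of equal level drawn. Most called genes lie close to the uncalled cloud, while genes such as Gc and Rps6ka6 lie far off the line.

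The largest rise was in Gc, the vitamin D binding protein normally secreted by liver (chr5:89417522-89457898, GRCm38). Its TPM was 0.03, 0, 0 and 0 in the polyclonal libraries and 157.3, 177, 158.51 and 183.76 in WT5. The groups lay far apart, with a centred log2 difference of 10.30 ± 0.11 (SE; limma adjusted p = 5.07e-12). Its level in the subclones was 274 to 374 TPM, above WT5 in all 5. Stc2, a secreted glycoprotein hormone induced by stress, was at 0.24, 0.51, 0.33 and 0.28 TPM and then 72.6, 73.55, 77.91 and 79.53 TPM, a difference of 7.14 ± 0.17. Inhbb, the beta B subunit of activin and inhibin, rose from 0.0275 ± 0.025 (SD, n = 4) to 17.5 ± 0.419 TPM. Grb10, an imprinted adaptor that dampens insulin receptor signaling, went from 0.0525 ± 0.0457 to 19.6 ± 0.667 TPM. The rule for large rises also named Col4a1, described with the matrix, and Gm10031, of which 88.8% of the exon bases lie in stretches shared with other genes, so its level is uncertain.

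The largest falls took genes from clear expression to near 0. Rps6ka6, a ribosomal S6 kinase of the X chromosome, was at 26.72, 23.93, 27.49 and 25.52 TPM in polyclonal cells and 0.02, 0, 0 and 0.02 TPM in WT5, a difference of -8.22 ± 0.12. The 2 lines did not overlap for this gene. Upk3a, a urothelial plaque protein, fell from 15 ± 1.48 to 0.0575 ± 0.085 TPM, and Fam84a was at 21.21, 20.17, 19.39 and 19.26 TPM and then 0.08, 0.12, 0.17 and 0.07 TPM. Slc1a1, a glutamate transporter, was listed at 11.29 to 13.54 TPM in polyclonal cells and at 0 in all 4 WT5 libraries, with 30.1% of its exon bases shared with other genes. Gm20388, almost all of which is shared with other genes, was listed at 0 in WT5 as well.

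**Figure D2:**
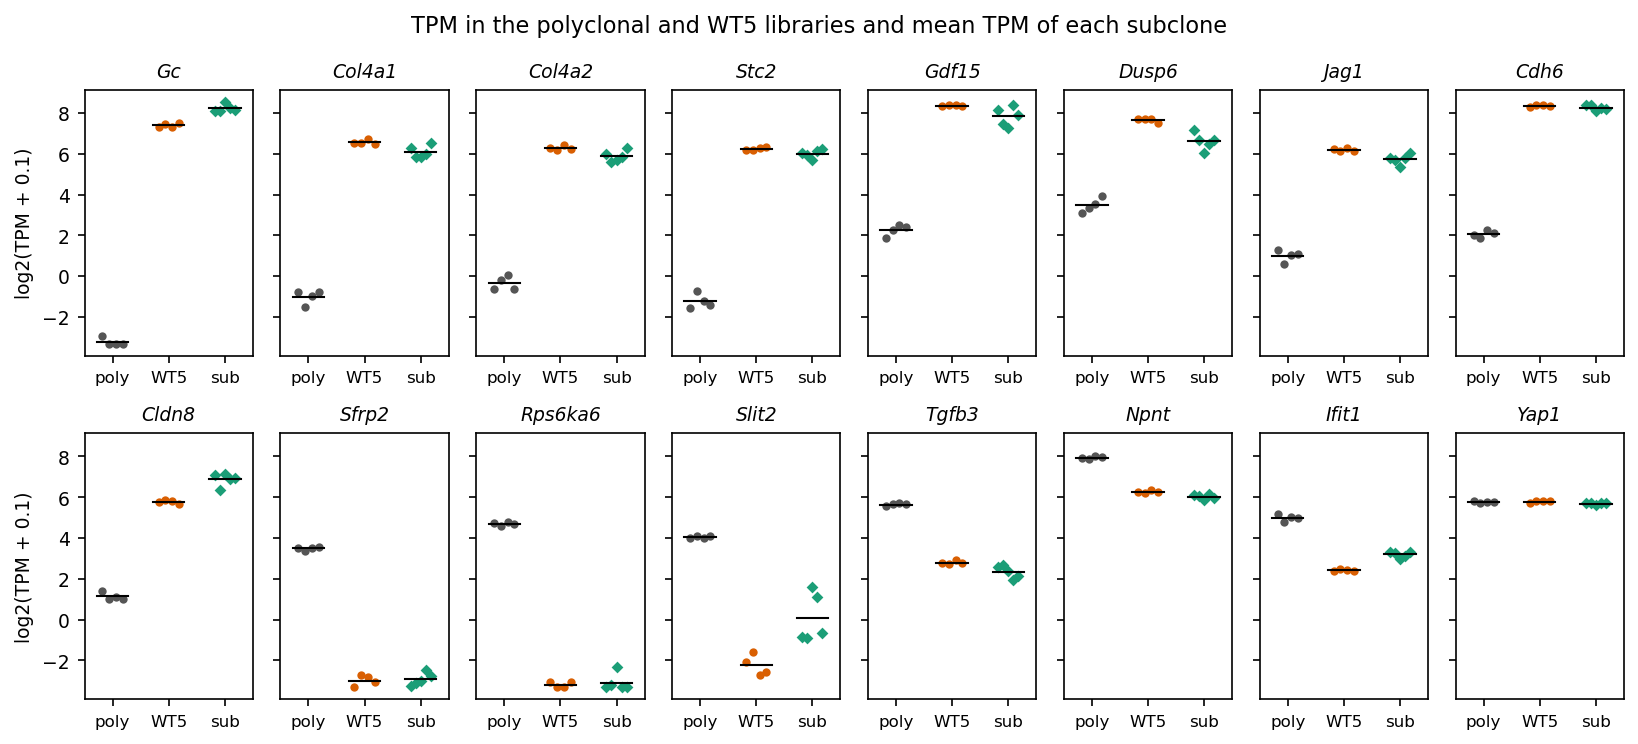
Level of 16 genes as log2(TPM + 0.1) (y axis), 1 panel per gene, with a point for each polyclonal and WT5 library and a diamond for the mean of each of the 5 subclones; bars mark the mean of the points. In every panel but that of Yap1, the 4 WT5 libraries lie apart from the 4 polyclonal libraries. The subclones lie on the side of WT5 in these panels, but for Slit2 subclones 3 and 4 lie nearer the polyclonal libraries.

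Matrix genes moved in both directions, with the type IV collagen chains Col4a1 and Col4a2 among the largest rises. Of 22 basement membrane genes, 7 were higher and 2 lower, with a median difference of 0.22 against -0.04 over all 11130 genes. Col4a1, the main chain of that collagen, was at 0.49, 0.25, 0.41 and 0.48 TPM in polyclonal cells and 90.84, 91.65, 104.53 and 89.78 TPM in WT5, a difference of 7.24 ± 0.15. Its partner chain Col4a2 rose from 0.705 ± 0.197 to 78.2 ± 6.04 TPM, and Nid2, a nidogen that links collagen to laminin, from 0.427 ± 0.0866 to 63.3 ± 3.92 TPM. Of the other chains, Col4a3 rose by 1.27 and was called in 1 subclone, and Col4a4, Col4a5 and Col4a6 were not called, at 0.12, -0.20 and -0.39. Npnt, nephronectin, the integrin ligand of the kidney basement membrane, fell from 247 ± 11.2 to 77.2 ± 3.91 TPM. Hspg2, perlecan, fell from 86.3 ± 6.6 to 38.8 ± 3.52 TPM and was called in 2 of the 5 subclones.

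Interstitial matrix and its proteases rose more widely. Among 19 other matrix proteins 10 were higher and 3 lower (median 1.07), and among 19 matrix proteases and inhibitors 11 were higher and 1 lower (median 1.67). Spp1, osteopontin, rose from 151 ± 7.11 to 773 ± 15.6 TPM, and the protease Adamts1 from 61.8 ± 3.65 to 434 ± 23.7 TPM. Plat, tissue plasminogen activator, went from 6.65 ± 0.285 to 77.8 ± 1.87 TPM. Fbln1, a fibulin, was at 0.0075 ± 0.015 and then 1.51 ± 0.32 TPM. Timp3, a matrix-bound protease inhibitor with 36.2% of its exon bases shared, rose from 0.427 ± 0.0299 to 7.43 ± 0.337 TPM. Postn, periostin, fell from 1.14 ± 0.739 to 0.05 ± 0.056 TPM, and the protease Adamts10 from 4.54 ± 0.147 to 1.82 ± 0.503 TPM. Of 29 integrins and adhesion receptors 6 were higher and 3 lower, led by Itga9, at 0.0325 ± 0.034 and then 5.25 ± 1.06 TPM, and by the laminin receptor subunit Itga7, which fell from 15.9 ± 1.27 to 2.85 ± 0.348 TPM.

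Growth factor ligands and receptors were mostly higher among those called. Of 28 genes of FGF, EGF, PDGF and angiogenic signaling, 15 were higher and 3 lower, with a median of 1.07 in WT5 and of 0.78 to 0.95 in the subclones. Igfbp7, an insulin-like growth factor binding protein, rose from 30.1 ± 3.09 to 441 ± 17.7 TPM, and Pdgfb, a PDGF chain, from 24.9 ± 1.19 to 98.6 ± 2.6 TPM. Vegfa, the vascular growth factor, rose from 16 ± 2.09 to 68.5 ± 5.48 TPM in WT5 but was at 29.9 to 35.0 TPM in the subclones and called in none. The falls were in Angpt1, a ligand of the Tie2 receptor, from 8.78 ± 0.483 to 0.0425 ± 0.005 TPM, and in Btc and Fgf9, ligands of the EGF and FGF receptors. Btc was at 2.69 ± 0.359 and then 0.273 ± 0.0472 TPM.

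The TGF-beta family split by ligand. Of its 35 genes 14 were higher and 2 lower (median 0.40). Beside Inhbb, the activin subunit Inhba rose from 0.115 ± 0.037 to 3.71 ± 0.722 TPM and Bmp6 from 0.237 ± 0.0858 to 7.95 ± 0.456 TPM. Bmp2 was listed at 0 in all 4 polyclonal libraries and at 1.49 to 1.89 TPM in WT5. Tgfb3 went the other way, at 46.69, 50.57, 51.7 and 49.98 TPM in polyclonal cells and 6.86, 6.47, 7.37 and 6.68 TPM in WT5, a difference of -3.17 ± 0.05 with no overlap.

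Notch ligands of the Jagged type rose while Dll1 fell. Of 19 Notch genes 6 were higher and 3 lower (median 0.48). Jag1 was at 2.31, 1.4, 1.94 and 2.02 TPM in polyclonal cells and 74.19, 69.68, 77.57 and 70.57 TPM in WT5, and Jag2 rose from 0.49 ± 0.0589 to 34.2 ± 1.19 TPM. The receptor Notch3 went from 1.83 ± 0.158 to 12.5 ± 0.929 TPM and the target gene Hey2 from 0.0875 ± 0.015 to 5.91 ± 0.235 TPM. Dll1, a Delta-type ligand, was at 8.31 ± 0.856 and then 2.22 ± 0.499 TPM. Of these genes, all that are named here were called in all 5 subclones.

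Wnt genes and guidance cues moved both ways. Of 33 Wnt pathway genes 10 were higher and 7 lower (median 0.20), and 14 of the 17 were called in all 5 subclones. Wnt7a, a ligand, rose from 0.7 ± 0.32 to 6.51 ± 0.568 TPM, the secreted protein Dkk3 from 0.525 ± 0.0733 to 15.5 ± 0.416 TPM and Dact2, a Dishevelled-binding protein, from 0.0325 ± 0.0189 to 5.54 ± 0.691 TPM. Sfrp2, a secreted Wnt-binding protein, fell from 11.1 ± 0.677 to 0.0275 ± 0.0222 TPM, and Tcf7l2, the nuclear partner of beta-catenin, from 34.6 ± 4.63 to 12.6 ± 0.975 TPM. Without centring 4 of the Wnt genes were lower. Of 38 axon guidance genes, which in epithelia act on shape and migration, 12 were higher and 6 lower (median 0.48). Sema5a rose from 0.188 ± 0.0359 to 26.4 ± 1.45 TPM and Unc5b, a netrin receptor, from 0.185 ± 0.0493 to 13.9 ± 0.753 TPM. The secreted cue Slit2 fell from 16.5 ± 0.667 to 0.122 ± 0.0814 TPM, Sema3c from 98.8 ± 5.66 to 16.2 ± 0.472 TPM, and the receptor Epha7 from 6.86 ± 0.839 to 0.02 ± 0.0216 TPM.

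Genes read as output and feedback of ERK signaling were higher by count. Of 29, 13 were higher and 2 lower, the median was 1.01, and their summed level was 1543 to 2168 TPM in polyclonal cells and 4876 to 5252 TPM in WT5. Dusp6, the phosphatase that switches ERK off, was at 8.48, 10.06, 11.67 and 15.26 TPM and then 208.53, 211.53, 207.49 and 183.1 TPM, a difference of 3.85 ± 0.15. Dusp5, a nuclear ERK phosphatase, rose from 7.02 ± 3.25 to 90.2 ± 4.18 TPM, and the AP-1 subunit Junb from 279.7 ± 40.3 to 1332 ± 30.7 TPM. Spry2, a feedback inhibitor of receptor tyrosine kinases, fell from 16.7 ± 1.78 to 8.28 ± 0.802 TPM. Of 25 Hippo pathway genes 5 were higher and none lower at these thresholds, so 20% were called, against 20.4% of all 11130 genes. Their median was 0.35 in WT5 and -0.15 to 0.15 in the subclones. Of the 5 called, 1 was called in all 5 subclones, Ankrd1, at 199 to 261 TPM there. The YAP targets Ankrd1 and Ccn2 rose from 57.1 ± 4.72 to 440.3 ± 11.7 TPM and from 162 ± 37.9 to 847 ± 44.7 TPM. Yap1 itself is described with the blotted genes.

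Junction genes shifted toward other members of the same families. Of 26 cadherin and epithelial-mesenchymal genes 13 were higher and 6 lower (median 0.83), and 15 of the 19 were called in every subclone. Cdh6, a cadherin of developing tubules, was at 3.95, 3.6, 4.66 and 4.3 TPM in polyclonal cells and 314.37, 332.02, 340.18 and 324.51 TPM in WT5, a difference of 5.95 ± 0.06 (limma adjusted p = 4.61e-12). Cdh2, N-cadherin, rose from 2.11 ± 0.389 to 20.6 ± 1.16 TPM. Cdh3, P-cadherin, fell from 107 ± 9.44 to 25.1 ± 1.28 TPM and Esrp1, an epithelial splicing regulator, from 64 ± 2.71 to 14.2 ± 0.166 TPM. Cdh1, E-cadherin, was at 145 ± 5.45 and 97.6 ± 1.55 TPM and was not called (-0.90). Cdh13 was listed at 1.45 to 2.12 TPM in polyclonal cells and at 0 in WT5.

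The claudins that were called were all higher at these thresholds. Of 27 claudin and tight junction genes 6 were higher and 0 lower, the 6 being claudins, with a list median of 0.01. The called share was 22.2%, against 20.4% of all 11130 genes. At 1 TPM in both lines 4 of 25 were called, against 15.2% of the 10323 such genes. Cldn8, a barrier claudin of the distal nephron, was at 2.55, 1.94, 2.03 and 1.91 TPM and then 54.45, 58.89, 55.99 and 51.27 TPM, a difference of 4.32 ± 0.09. Cldn4 rose from 165 ± 16.7 to 1089 ± 36.9 TPM, Cldn3 from 18.6 ± 2.2 to 247 ± 5.58 TPM, and Cldn2, a cation-permeable claudin of the proximal tubule, from 0.415 ± 0.0661 to 8.16 ± 0.952 TPM. Of 7 keratins 3 were higher and 1 lower, led by Krt80 at 1.94 ± 0.181 and then 15.5 ± 0.744 TPM. Krt15, a basal keratin, was at 1.92 ± 0.256 and then 0.015 ± 0.03 TPM.

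The counts above include genes at 1 TPM in only 1 line, for which the level filter favours a difference. Restricted to genes at 1 TPM in both lines, matrix proteases gave 8 higher and 1 lower of 16, other matrix proteins 7 and 2 of 15, growth factors 12 and 0 of 21, the TGF-beta family 9 and 2 of 29, ERK genes 11 and 2 of 26, claudins 4 and 0 of 25, and cadherins 8 and 5 of 20. For Wnt and guidance genes the counts were then 4 and 4 of 24, and 6 and 4 of 30. Notch genes gave 3 and 3 of 16, basement membrane genes 3 and 2 of 17 and integrins 4 and 3 of 26, so the further rises in these lists were of genes below 1 TPM in polyclonal cells.

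**Figure D3:**
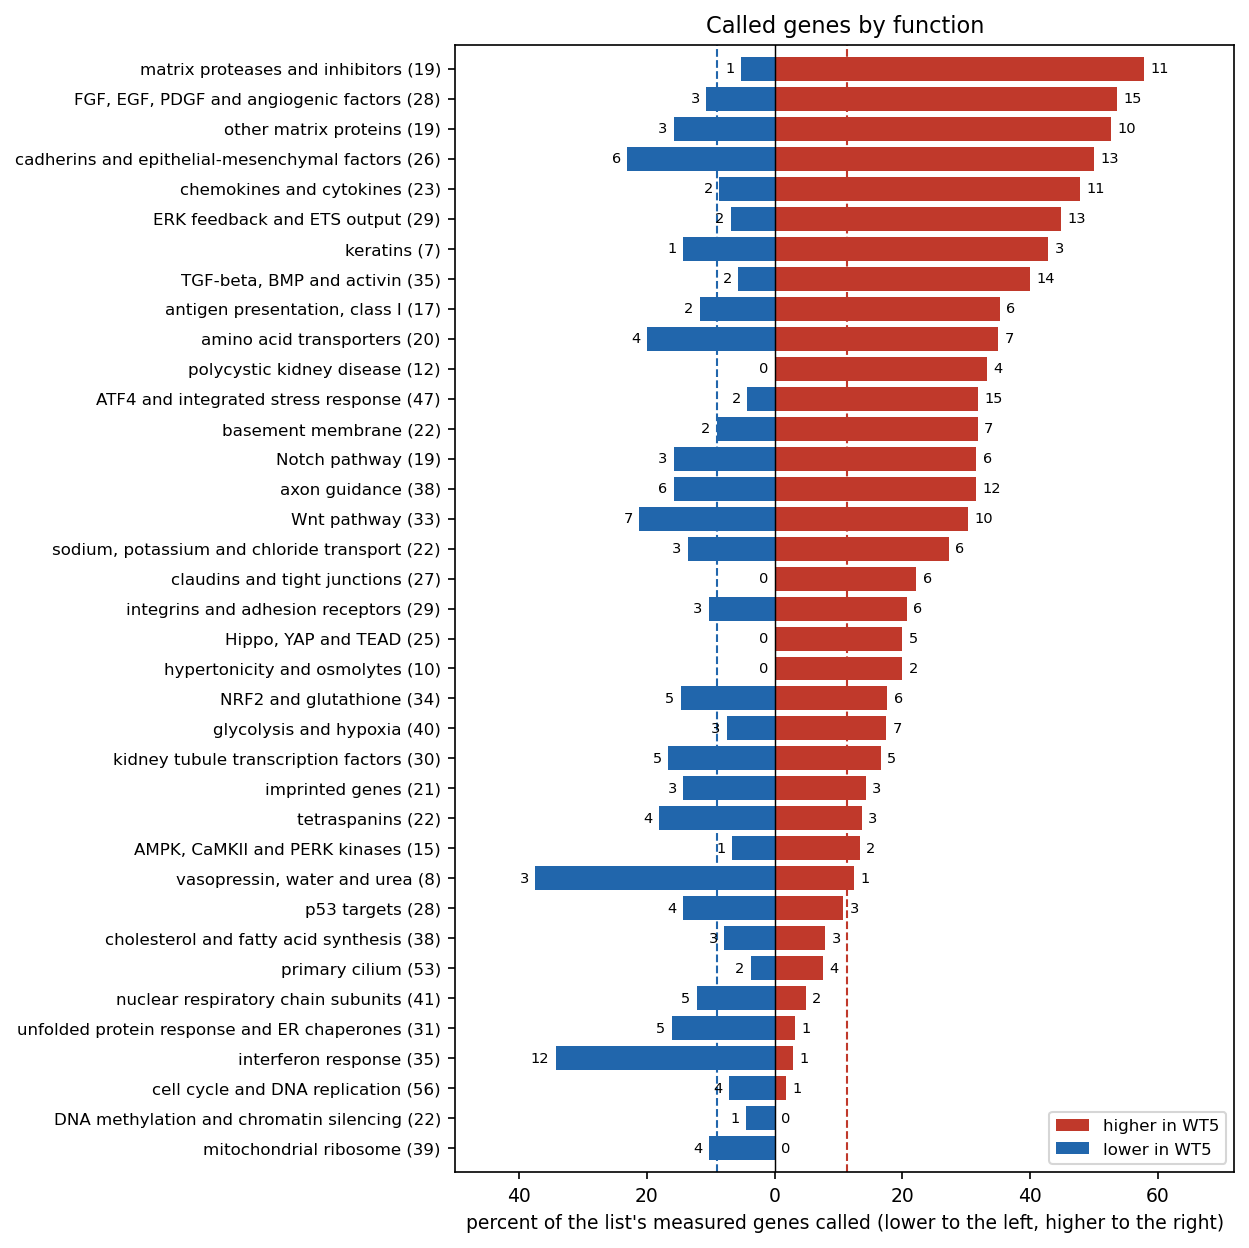
Percent of the genes of each function list called higher (bars to the right) or lower (bars to the left) in WT5, with the number of genes measured in brackets and of genes called at the bar ends; dashed lines mark the shares over all 11130 genes, 11.4% and 9%. Matrix proteases, growth factors and other matrix proteins reach farthest to the right, and vasopressin genes, 3 of 8 lower, and interferon response genes, 12 of 35 lower, farthest to the left. The bars include genes at 1 TPM in only 1 line, for which the level filter favours a difference. At 1 TPM in both lines, 1 of 5 vasopressin genes and 6 of 29 interferon response genes were lower.

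Transport genes moved both ways. Of 8 vasopressin, water and urea genes 1 was higher and 3 lower, but at 1 TPM in both lines 1 was higher and 1 lower of 5. Avpr2, the vasopressin V2 receptor, fell from 10.6 ± 0.583 to 0.06 ± 0.0744 TPM, although 76.9% of its exon bases are shared with other genes, so this level is uncertain. Prkar2b, a regulatory subunit of protein kinase A, fell from 63.9 ± 5.91 to 19.5 ± 1.08 TPM. Pde4d, a cAMP phosphodiesterase, was at 1.61 ± 0.483 and 4.27 ± 0.216 TPM, a rise of 1.06 that was 0.94 and not called without polyclonal replicate 2. Of 22 genes of sodium, potassium and chloride transport 6 were higher and 3 lower, but at 1 TPM in both lines 1 was higher and 2 lower of 16. Slc9a2, a sodium-proton exchanger, rose from 0.0125 ± 0.00957 to 5.43 ± 0.367 TPM and the chloride channel Ano1 from 0.27 ± 0.108 to 8.97 ± 0.753 TPM. Scnn1g, the gamma subunit of the epithelial sodium channel, fell from 14.3 ± 0.736 to 4.85 ± 0.324 TPM, and Atp1b1, the beta subunit of the sodium pump, from 566 ± 13.1 to 257 ± 4.32 TPM. Of 10 genes of the response to hypertonicity 2 were higher and 0 lower, Hspa1a, a heat shock protein, going from 1.37 ± 0.188 to 8.37 ± 0.242 TPM. Of its exon bases 66.3% are shared, and its near-copy Hspa1b was at 89.9 and 122 TPM and not called (0.12), so this level is uncertain.

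Transcription factors of the tubule moved both ways, with 5 of 30 higher and 5 lower. Irx1, a factor of the developing nephron, rose from 0.145 ± 0.0661 to 9.86 ± 0.529 TPM, Sox9, which marks repairing tubule cells, from 0.393 ± 0.102 to 9.6 ± 0.199 TPM, and Lhx1 from 0.598 ± 0.241 to 9.29 ± 0.589 TPM. Gata3, a regulator of the nephric duct and ureteric bud, fell from 4.08 ± 1.1 to 0.04 ± 0.00816 TPM. Eya1, an early kidney factor, fell from 34.1 ± 1.89 to 2.41 ± 0.201 TPM and the epithelial ETS factor Ehf from 155 ± 10.0 to 39.1 ± 1.43 TPM. All 6 were called in every subclone.

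Of cystic kidney genes 33.3% were called and of cilium genes 11.3%, against 20.4% of all 11130 genes. Of 12 polycystic kidney disease genes 4 were higher and 0 lower, namely Pkd1, Pkhd1, Dzip1l and Umod. Pkhd1, which encodes fibrocystin, rose from 2.19 ± 0.298 to 13.8 ± 1.02 TPM. Umod, uromodulin of the thick ascending limb, was at 0.0675 ± 0.0499 and then 3.38 ± 0.132 TPM. Of 53 cilium genes 4 were higher and 2 lower with a median of -0.09, and without centring the counts were 9 and 1. Mks1, a transition zone protein, rose from 0.045 ± 0.037 to 5.7 ± 0.744 TPM and Bbs9, a BBSome subunit, fell from 17.4 ± 1.13 to 8.65 ± 0.434 TPM.

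The integrated stress response and the unfolded protein response went in different directions by count. Both answer trouble in protein synthesis: phosphorylation of eIF2 alpha raises translation of ATF4, which turns on amino acid synthesis and transport genes, while IRE1, XBP1 and ATF6 raise the chaperones of the endoplasmic reticulum (ER). Of 47 ATF4 genes 15 were higher and 2 lower (median 0.53; 0.31 to 0.61 in the subclones), and of 31 unfolded protein response genes 1 was higher and 5 lower (median -0.52; -0.71 to -0.62 in the subclones). Summed levels were 3180 to 3520 TPM in polyclonal cells and 6479 to 6576 TPM in WT5 for the first list, and 5498 to 5704 and 4389 to 4499 TPM for the second. Without centring the first list had 0 lower and the second 2 higher and 2 lower. The number of ER genes called lower thus depended on the scaling.

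Called ATF4 genes ranged from secreted factors to enzymes. Gdf15, a stress cytokine, was at 3.59, 4.69, 5.62 and 5.21 TPM in polyclonal cells and 327.64, 339.19, 330.6 and 320.18 TPM in WT5, a difference of 5.77 ± 0.11 with no overlap. Cbs, the first enzyme of transsulfuration, rose from 2.71 ± 0.394 to 167 ± 2.49 TPM, while Cth, the enzyme of the next step, fell from 5.13 ± 0.625 to 2.6 ± 0.522 TPM. Chac1, which degrades glutathione, rose from 8.15 ± 1.13 to 73.0 ± 1.58 TPM, the factor Atf5 from 24.2 ± 1.97 to 177 ± 13.5 TPM and the pseudokinase Trib3 from 9.06 ± 0.923 to 61.5 ± 1.86 TPM. Atf4 itself was at 207 ± 7.1 and 517 ± 8.99 TPM, and its centred difference of 0.99 fell just under the threshold. Psph, Eif4ebp1 and Asns were called in WT5 but in no subclone. Asns, asparagine synthetase, was at 59.7 ± 6.41 TPM in polyclonal cells, 156 ± 3.85 TPM in WT5 and 79.8 to 135 TPM in the subclones.

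In the ER list, Derl3, a subunit of the ER degradation channel, fell from 11.1 ± 1.04 to 2.41 ± 0.404 TPM, a difference of -2.49 ± 0.12. Canx, the lectin chaperone calnexin, was at 532.54, 462.64, 513.48 and 596.16 TPM and then 265.59, 265.99, 267.44 and 256.73 TPM, which did not overlap. Sec24d, a coat protein of ER export, fell from 67.0 ± 8.33 to 18.7 ± 1.05 TPM, and Xbp1 from 112 ± 5.28 to 61.9 ± 2.6 TPM. Hspa5, the main ER chaperone BiP, was at 665 ± 20.8 and 509.7 ± 14.5 TPM and was not called (-0.71). Ern1, which encodes the sensor IRE1 alpha, rose from 4.51 ± 0.114 to 12.1 ± 1.49 TPM. Its rise of 1.07 was 0.99 and not called without WT5 replicate 3, and it was called in no subclone.

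The promoters of these genes were read for the elements the pathways are known to use. ATF4 elements were searched as TGATGCAA or TGATGAAA, and the ER stress element as CCAAT followed after any 9 bases by CCACG, on both strands of the RefSeq promoters of GRCm38.p6, from 250 bases before to 50 after each start. An ATF4 element lay in 4 of 14 promoters of called-higher ATF4 genes and 9 of 26 promoters of genes not called, against 1.90% of all promoters. The 4 are shown to place the element in each called gene's window, each from 250 bases before to 10 after the start, 5′ to 3′ on the gene's strand, with the element in capitals. Chac1 lies at chr2:119350992-119351251 (plus strand), Slc7a11 at chr3:50443604-50443863 (minus strand), Slc1a4 at chr11:20332704-20332963 (minus strand) and Asns at chr6:7693200-7693459 (minus strand).
Chac1: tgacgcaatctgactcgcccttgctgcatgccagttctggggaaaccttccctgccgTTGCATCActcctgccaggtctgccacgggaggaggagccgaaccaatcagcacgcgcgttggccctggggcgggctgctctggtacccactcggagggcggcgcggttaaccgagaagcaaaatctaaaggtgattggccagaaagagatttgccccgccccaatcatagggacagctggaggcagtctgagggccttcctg
Slc7a11: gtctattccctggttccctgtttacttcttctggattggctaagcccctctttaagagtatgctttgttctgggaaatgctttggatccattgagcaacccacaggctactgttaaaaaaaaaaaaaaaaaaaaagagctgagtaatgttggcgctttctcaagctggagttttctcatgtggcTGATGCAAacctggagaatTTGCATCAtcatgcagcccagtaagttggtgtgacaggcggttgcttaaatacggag
Slc1a4: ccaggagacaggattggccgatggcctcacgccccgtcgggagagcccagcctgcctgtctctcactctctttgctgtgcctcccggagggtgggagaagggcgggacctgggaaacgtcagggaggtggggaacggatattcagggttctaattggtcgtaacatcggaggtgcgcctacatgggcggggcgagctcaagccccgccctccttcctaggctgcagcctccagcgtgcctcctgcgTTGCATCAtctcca
Asns: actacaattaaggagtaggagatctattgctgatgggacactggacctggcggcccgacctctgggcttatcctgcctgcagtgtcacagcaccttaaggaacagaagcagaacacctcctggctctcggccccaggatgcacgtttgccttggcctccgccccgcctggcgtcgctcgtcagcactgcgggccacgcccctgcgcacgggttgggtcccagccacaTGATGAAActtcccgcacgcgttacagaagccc

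Beside these sequences, Slc7a11, the cystine transporter, was at 0.565 ± 0.111 TPM in polyclonal cells and 1.93 ± 0.289 TPM in WT5. Slc1a4, a neutral amino acid transporter, was at 4.25 ± 0.34 and 11.9 ± 0.273 TPM. Chac1 was called in 5 subclones, Slc7a11 and Slc1a4 in 1 each and Asns in none. The letters in the window do not show binding of any factor.

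An ER stress element lay in 2 of 5 promoters of called-lower ER genes and in 7 of 19 of genes not called, against 0.119% of all promoters. The 2 are shown for comparison with the ATF4 group: Canx at chr11:50325664-50325923 (minus strand) and Derl3 at chr10:75893148-75893407 (plus strand), with the element in capitals.
Canx: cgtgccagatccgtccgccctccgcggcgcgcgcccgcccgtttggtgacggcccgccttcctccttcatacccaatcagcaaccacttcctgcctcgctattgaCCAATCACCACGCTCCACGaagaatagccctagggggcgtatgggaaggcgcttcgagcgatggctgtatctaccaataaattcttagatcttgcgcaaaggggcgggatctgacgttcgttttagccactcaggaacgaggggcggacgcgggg
Derl3: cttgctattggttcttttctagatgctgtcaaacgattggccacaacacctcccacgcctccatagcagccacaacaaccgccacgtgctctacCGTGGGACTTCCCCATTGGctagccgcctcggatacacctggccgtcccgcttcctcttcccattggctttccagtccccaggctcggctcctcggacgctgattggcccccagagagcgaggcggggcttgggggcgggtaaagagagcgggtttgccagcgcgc
The TEAD motif GGAATG lay in 4 of 4 promoters of called-higher Hippo genes and 9 of 17 of those not called, against 14.7% of all. The AP-1 letters TGACTCA or TGAGTCA, which are the same site read on opposite strands, were in 0 of 9 promoters of called-higher ERK genes, against 5.20% of all, and the sterol element TCACNCCAC in 0 of 4 promoters of called lipid genes, against 1.24%. The ATF4, ER stress and TEAD letters were held by called and uncalled genes of their lists alike, and the AP-1 letters by none of the ERK promoters, called or not.

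Immune genes split by branch. Of 35 interferon response genes 1 was higher and 12 lower, with a median of -0.69 in WT5 and of -0.45 to -0.30 in the subclones. At 1 TPM in both lines 1 was higher and 6 lower of 29. Ifit1, an interferon-induced RNA sensor, was at 35.89, 27.61, 32.4 and 31.85 TPM and then 5.06, 5.46, 5.26 and 5.13 TPM, a difference of -2.91 ± 0.07. The antiviral enzyme Rsad2 fell from 2.8 ± 0.807 to 0.25 ± 0.0735 TPM and the GTPase Iigp1 from 1.44 ± 0.476 to 0.0325 ± 0.034 TPM. Gbp7, a guanylate-binding protein, was at 1.45 ± 0.35 and 3.82 ± 0.353 TPM, a rise of 1.03 that was not called without polyclonal replicate 2 (0.87) or WT5 replicate 2 (0.998). Of 17 class I antigen presentation genes 6 were higher and 2 lower. The immunoproteasome subunits Psmb8 and Psmb9 rose from 31.6 ± 3.67 to 129.5 ± 3.49 TPM and from 5.13 ± 0.392 to 20.9 ± 1.23 TPM, and H2-M3, a nonclassical class I chain, from 0.9 ± 0.182 to 21.3 ± 1.78 TPM. Psme1, a proteasome activator subunit, fell from 327 ± 24.8 to 194 ± 3.67 TPM, and without centring its difference was -0.75 and not called.

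Chemokines were mostly higher among those called. Of 23 chemokine and cytokine genes 11 were higher and 2 lower (median 0.71; 0.66 to 0.96 in the subclones), and at 1 TPM in both lines 6 were higher and 1 lower of 17. Ccl2, the monocyte attractant, was at 0.12, 0.4, 0.22 and 0.19 TPM in polyclonal cells and 11.98, 10.94, 12.27 and 16.03 TPM in WT5. Cxcl1, a neutrophil attractant, was at 17.9 ± 5.75, then 57.2 ± 2.52 TPM, and 59.5 to 117 TPM in the subclones. Ccl28, a mucosal chemokine, fell from 1.25 ± 0.269 to 0.182 ± 0.0532 TPM.

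Metabolic genes moved both ways. Of 40 glycolysis and hypoxia genes 7 were higher and 3 lower. The lactate exporter Slc16a3 rose from 1.92 ± 0.488 to 77.4 ± 5.78 TPM, while its relative Slc16a1 fell from 52.2 ± 1.84 to 18.1 ± 0.579 TPM. Arnt2, a partner of hypoxia factors, rose from 0.0275 ± 0.00957 to 4.89 ± 0.11 TPM, and Aldoc, an aldolase, fell from 119 ± 8.01 to 11.7 ± 1.5 TPM. Of 34 NRF2 and glutathione genes 6 were higher and 5 lower, and 10 and 2 without centring. Gstm1, a glutathione transferase, rose from 45.4 ± 3.66 to 389.9 ± 21.4 TPM and Gsta4 fell from 7.89 ± 0.654 to 1.8 ± 0.382 TPM.

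Of 38 cholesterol and fatty acid genes 3 were higher and 3 lower. Fasn, fatty acid synthase, fell from 147 ± 5.66 to 51.9 ± 2.18 TPM. Of 20 amino acid transporters 7 were higher and 4 lower, Slc38a3 going from 0.775 ± 0.309 to 4.52 ± 0.342 TPM. Of 41 nuclear respiratory chain genes 2 were higher and 5 lower (median -0.47), and 2 were lower without centring. Cox7b, a cytochrome oxidase subunit of the X chromosome, fell from 319 ± 28.7 to 108 ± 2.58 TPM. Of 39 mitochondrial ribosome genes 0 were higher and 4 lower, and 1 and 2 without centring. Mrpl19 fell from 45.7 ± 3.13 to 21.4 ± 1.65 TPM.

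Cell cycle genes gave 1 higher and 4 lower of 56 (median 0.07), and without centring 5 higher and 0 lower, so no direction held for them across scalings. Cdk6, a G1 kinase, rose from 6.97 ± 0.518 to 35.2 ± 3.43 TPM and Cdk4, its relative, fell from 1131 ± 69.3 to 600.0 ± 35.2 TPM. Of 28 p53 target genes 3 were higher and 4 lower, and 7 were higher without centring. Trp53i11 rose from 0.37 ± 0.23 to 53.7 ± 2.67 TPM and Perp, a p53-induced desmosome protein, fell from 51.7 ± 2.54 to 5.22 ± 0.37 TPM. Of 22 genes of DNA methylation and silencing only Tet2, a demethylating dioxygenase, was called, from 10.9 ± 0.909 to 5.79 ± 0.294 TPM, and its difference was -0.91 and not called without centring, where 1 other gene of the list was higher. Of 21 imprinted genes 3 were higher and 3 lower, among them Peg10, which fell from 34.2 ± 5.91 to 6.18 ± 0.486 TPM. Of 22 tetraspanins 3 were higher and 4 lower. Tspan18 rose from 0.04 ± 0.00816 to 11.1 ± 1.07 TPM and Tspan1 fell from 16.1 ± 1.4 to 0.107 ± 0.0512 TPM.

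Among the moderate shifts, the genes of highest level included ribosomal, translational, glycolytic and mitochondrial ones. Gapdh, a glycolytic enzyme often used as a reference, was at 409.41, 431.38, 460.38 and 444.05 TPM and then 3607.07, 3377.1, 3776.72 and 3615.74 TPM, a difference of 2.71 ± 0.05. The ribosomal genes Rps27, Rps12 and Rps2 rose as well, by 2.72, 2.11 and 1.64. Between 25% and 71% of the exon bases of these 4 genes lie in stretches shared with other genes, so reads could be split between a gene and its copies and these levels are uncertain. Atp5b, a subunit of ATP synthase with 0.86% shared, rose from 1320 ± 83.6 to 4349 ± 124 TPM and was called in no subclone.

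The falls at that level were in Eef1a1, the translation elongation factor, from 11472 ± 565 to 5209 ± 147 TPM, Tpt1, from 5985 ± 272 to 2287 ± 121 TPM, Rack1, by 1.13 on the log2 scale, and 3 mitochondrially encoded genes. These levels are uncertain too, with 60.6% of the exon bases of Eef1a1, 42.0% of Tpt1, 51.1% of mt-Co1 and 62.2% of mt-Nd4 shared with other genes. mt-Co1, a cytochrome oxidase subunit, was at 14058.7, 10641.9, 7921.86 and 20880.2 TPM in polyclonal cells and 8064.58, 8274.33, 7898.37 and 6231.53 TPM in WT5. The groups overlapped for mt-Co1 and for mt-Nd4, and both calls were lost on leaving out any 1 library but polyclonal replicate 3. mt-Cytb fell by 1.31 on the log2 scale, and none of the 3 was called in a subclone. Without centring none of the 3, nor Rack1, was called, and under quantile normalization mt-Co1 stood at 0.0027.

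The genes whose proteins the study blotted or deleted were not called, apart from 2. Yap1, the Hippo coactivator, was at 54.7 ± 1.02 and 55.0 ± 1.15 TPM, a centred difference of -0.32 ± 0.03 and not called. Prkaa1 and Prkaa2, catalytic subunits of AMPK, differed by -0.25 and 0.45, Eif2ak3, which encodes PERK, by 0.30, and Pkd2, polycystin 2, by -0.33, none of them called. Prkaa2 was at 2.75 ± 0.334 and 4.775 ± 0.254 TPM, and Eif2ak3 at 26.4 ± 0.895 and 40.8 ± 2.61 TPM. In the subclones Prkaa2 differed from polyclonal cells by 0.85 to 1.19 and Eif2ak3 by -0.45 to 0.50. Without centring Yap1, Prkaa1 and Pkd2 changed sign, at 0.0086, 0.076 and 0.0013. Camk2d, a calcium-calmodulin kinase, was at 81.52, 73.35, 76.52 and 77.53 TPM and then 40.55, 45.63, 49.08 and 43.15 TPM, a difference of -1.12 ± 0.05 that was -0.79 and not called without centring, and it was called in 1 subclone. Pkd1, polycystin 1, was at 2.26, 2.27, 3.01 and 2.75 TPM and then 8.13, 8.9, 9.54 and 8.07 TPM, a difference of 1.39 ± 0.10 (limma adjusted p = 1.29e-06), and was called in all 5 subclones. Of 15 AMPK, CaMKII and PERK kinase genes 2 were higher, Camkk1 and Camkk2, and 1 lower, Camk2d, and without centring 4 were higher and 0 lower. Camkk1, a kinase upstream of AMPK, rose from 1.13 ± 0.229 to 5.18 ± 0.29 TPM.

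Moderate shifts were spread unevenly over the chromosomes. On 15 chromosomes the median centred difference lay between -0.21 and -0.01. Chromosomes 2, 5 and 18 had medians of 0.35, 0.36 and 0.33 over 882, 722 and 292 genes, and chromosomes 3 and X of -0.44 and -0.36 over 550 and 326 genes. As ratios these medians were 1.28, 1.28, 1.26, 0.737 and 0.781. Without centring chromosomes 2, 5 and 18 stood at 0.66 to 0.68, the other 15 at 0.12 to 0.32, chromosome 3 at -0.11 and X at -0.03, so the fall of 3 and X is relative to the other chromosomes. The shift ran through the whole set of genes: 73.1%, 72.7% and 66.8% of the genes of chromosomes 2, 5 and 18 lay above 0, against 28.7% and 26.4% on 3 and X. Genes that were not called moved too, with medians of 0.24 and 0.27 on chromosomes 2 and 5 and -0.31 on chromosome 3.

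Along the chromosomes, cut into sixths with equal numbers of genes, the median was above 0 in every sixth of chromosome 2 (0.26 to 0.48) and of chromosome 5 (0.28 to 0.45), and below 0 in every sixth of chromosome 3 (-0.68 to -0.25) and of X (-0.68 to -0.12). On chromosome 18 the sixths ran from -0.05 to 0.47. The 4 WT5 libraries agreed closely among themselves, at 0.34 to 0.37 for chromosome 2, 0.36 to 0.38 for 5, 0.32 to 0.35 for 18, -0.45 to -0.42 for 3 and -0.38 to -0.33 for X. Chromosomes 2, 5 and 18 held 17.1% of the genes, with 343 called higher and 94 lower, or 18.1% and 4.96% of their genes. Chromosomes 3 and X held 7.88%, with 54 higher and 185 lower, or 6.16% and 21.1%. The other 15 chromosomes held 869 higher and 718 lower, 10.4% and 8.60% of their genes. So 28.8% of moderate rises lay on chromosomes 2, 5 and 18 and 18% of moderate falls on 3 and X. These chromosomes were set apart after their medians were seen. The calls and the sixths describe the same differences and carry no test.

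The 20 subclone libraries showed the same 5 chromosomes, with ranges of 0.30 to 0.38, 0.29 to 0.45, 0.28 to 0.44, -0.49 to -0.38 and -0.35 to -0.19 for 2, 5, 18, 3 and X. Some subclones stood apart on others. In subclone 4 chromosome 6 was at -0.41 to -0.35 over its 4 libraries, against -0.12 to -0.09 in WT5, and chromosome 12 at 0.18 to 0.23, against -0.18 to -0.15 in WT5. In subclone 5 chromosome 12 was at -0.40 to -0.33. DNA content was not measured in these files, and the subclone values rest on the same polyclonal libraries as those of WT5. The study examined chromosomes of its monoclonal wild-type lines, WT5 among them, by multicolor fluorescence in situ hybridization. It reported polyploid karyograms that looked alike, with no sign of structural aberration or instability. The figure legend names no polyclonal wild-type cells or subclones. How these karyograms relate to the shifts was not tested.

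**Figure D4:**
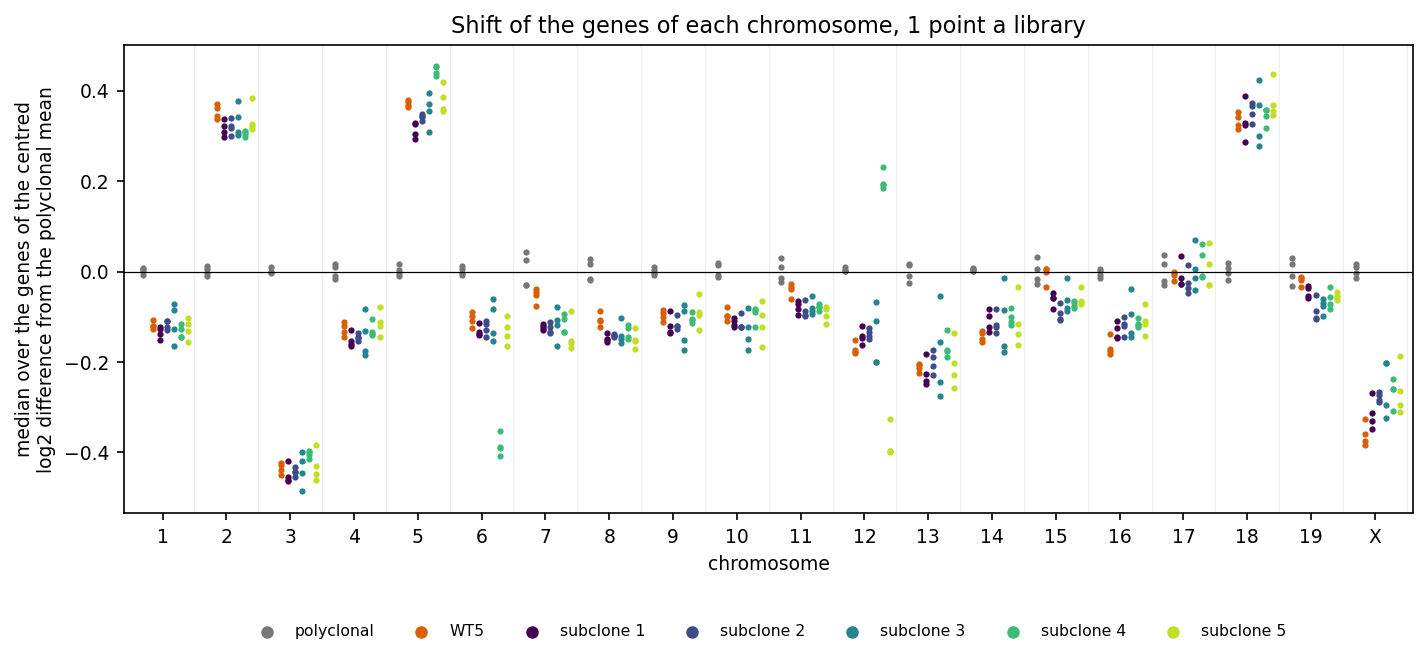
Median centred log2 difference from the polyclonal mean over the genes of each chromosome (y axis) for chromosomes 1 to 19 and X (x axis), 1 point per library, with colors for polyclonal cells, WT5 and the 5 subclones. WT5 libraries lie near 0.35 on chromosomes 2, 5 and 18 and near -0.44 and -0.36 on 3 and X, and subclones 4 and 5 leave the others on chromosomes 6 and 12.

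Large shifts also came in neighbouring genes. Of the 309 large rises 59, or 19.1%, had an adjacent gene of the set with a large rise, against 5.44% of any gene, and of the 178 large falls 24, or 13.5%, had one with a large fall, against 3.12%. On chromosome 2 the run Chst1, Prdm11, Trp53i11 and Tspan18 rose by 4.55, 5.06, 6.68 and 5.99. Col4a1 and Col4a2, which are transcribed from a shared promoter, rose together, as did Slc4a4, a bicarbonate cotransporter, with Gc beside it on chromosome 5. Among the falls, Ffar4 and Rbp4 on chromosome 19 went from 4.9 ± 0.308 and 4.21 ± 0.723 TPM to 0.0075 ± 0.015 and 0.015 ± 0.03 TPM. On the X chromosome Armcx1 fell from 6.91 ± 0.819 to 0.0325 ± 0.0525 TPM beside Armcx3, 30% of which is shared. These runs were looked for after the values were seen and carry no test.

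Most calls were also made in the subclone libraries. Called shares of the 11130 genes against polyclonal cells were 19.6%, 19.4%, 18.9%, 19.9% and 19.7% for subclones 1 to 5, all measured against the same 4 polyclonal libraries as WT5. Of the 2268 genes called in WT5, 1478 (65.2%) were called in the same direction in all 5 subclones, 200 in 4, 125 in 3, 97 in 2, 128 in 1 and 240 (10.6%) in none. The share was larger for large shifts: 462 of 487 large shifts (94.9%) were called in all 5, against 1016 of 1781 moderate ones (57.0%), and 1 large and 239 moderate shifts in none. Among moderate shifts, 606 of 957 rises and 410 of 824 falls were called in all 5. The sign, without the threshold, was the same in all 5 for 2212 of the 2268.

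The 4 largest shifts seen in WT5 and in no subclone were in genes of low level. Rsc1a1, the 1 large shift among them, shares all of its exon bases with other genes, had 0 TPM in 2 WT5 libraries, and lost its call when any of 6 of the 8 libraries was left out (all 4 polyclonal ones and WT5 replicates 1 and 4). Ptgds, a prostaglandin D synthase, was at 4.95 ± 1.15 TPM in polyclonal cells, 0.998 ± 0.301 TPM in WT5 and 3.56 to 7.45 TPM in the subclones. Inmt, a methyltransferase, was at 5.37 ± 0.884 and 1.28 ± 0.228 TPM and at 4.97 to 20.8 TPM in the subclones. For both, the subclone levels lay near or above the polyclonal level. Krt20, a keratin of the urothelium and gut, was at 0.802 ± 0.0723 and 4.38 ± 0.359 TPM.

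Some genes that rose or fell in WT5 differed widely between its subclones. Timp3 was at 0.02 ± 0.0183 TPM in subclone 1 and 4.00 to 8.29 TPM in the other 4, and Ccl2 at 0.065 ± 0.0493 TPM in subclone 2 and 18.5 to 28.1 TPM in the others, so each was at or under its polyclonal level in 1 subclone. Aldoc was at 0.445 ± 0.115 TPM in subclone 3, far under its WT5 level, and at 5.03 to 11.9 TPM in the others. Scnn1g ran from 3.15 ± 0.497 TPM in subclone 3 to 16 ± 1.61 TPM in subclone 5, the last above its polyclonal level, and Umod from 2.12 ± 0.0709 TPM in subclone 2 to 11.6 ± 1.24 TPM in subclone 5. Perp ran from 1.67 to 12.4 TPM. These 6 genes were picked for this description after their values were seen.

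**Figure D5:**
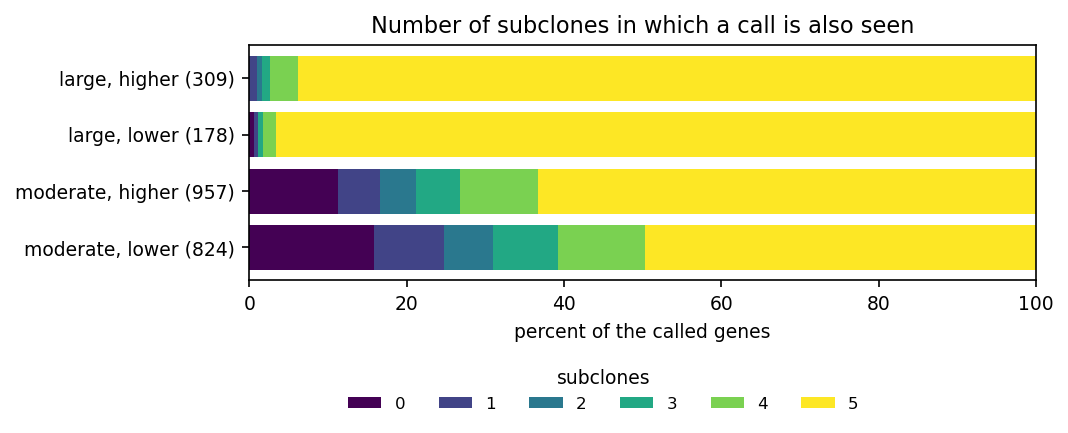
Stacked bars of the percent of called genes (x axis) by the number of subclones, 0 to 5, in which the call was made too, for large and moderate rises and falls in WT5, with the number of called genes in brackets. The part called in all 5 subclones fills most of both bars of large shifts and is smaller for moderate ones.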

How the data were processed

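RNA-seq libraries of polyclonal mIMCD-3 cells, WT5 and 5 WT5 subclones were used, 4 per group. The authors deposited TPM values per gene, which per the submitters' processing notes and the study's methods were made with CASAVA 1.8, STAR 2.7.3a and RSEM 1.3.1 on GRCm38. No counts were used, so depth per library is unknown. Directions follow the names of the deposited columns; signs in a table of the study may run the other way.

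Genes were matched by identifier to the GENCODE M21 annotation for type, exon bases and position. Sharing was the percent of the 50-base windows of a gene's longest transcript that occur, on either strand, in another gene's longest transcript. Values were analysed as log2(TPM + 0.1) and centred per library on the median over the 11130 genes. The 18320 genes with a mean of 0.1 TPM or more in either line were fitted with limma 3.58.1 (R 4.3.3, empirical Bayes with trend, 8 libraries, no covariate), with p-values adjusted by Benjamini-Hochberg. Subclones were fitted over all 28 libraries, each against polyclonal cells, with the same thresholds. Tables and figures used Python 3.11.15, numpy 2.4.6, pandas 2.3.3 and matplotlib 3.10.9. Tested on simulated data over 18320 genes for the WT5 comparison, limma recovered 93% of changes of 1.5 and 98.7% of changes of 4 log2 units with 3 false calls, and an unequal-variance test 78.3% and 95.7% with 0. The simulation changed few genes, as many up as down, all at a mean of 1 TPM or more, with noise of the replicates' spread. In the data 32.8% of tested genes were called and read layout differed between the lines, so these rates need not hold there.

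The genes and function lists were chosen with earlier results of these data known. Named genes were the 6 largest rises and falls at 10 TPM or more without overlap, the 6 moderate calls of highest level each way, the largest call each way per list, the blotted or deleted genes with Pkd2, and the 4 largest calls in no subclone. Some genes that the rule names are not reported here. Any further gene in the text was picked with its values known. At the edge of the criteria, Atp2c2 at 1.0025 TPM was inside and Vash1 at 0.9975 TPM outside, and Apip with 1000 exon bases was inside and 9330161L09Rik with 999 outside. Promoters came from RefSeq (GRCm38.p6). The alternatives were other pseudocounts, thresholds, level, length and shared-sequence filters, normalizations and tests, each library left out, and a fit with the replicate number as a block.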

Additional observations from a re-analysis of the deposited data

Results flagged for a closer look

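Of 187 groups of 4 libraries tested for named genes, 19 held a library whose gap to the nearest of the others, as a share of the group's range, passed Dixon's 95% critical value, 10.2% where chance gives about 1 in 20. In WT5 libraries these were Col4a1 at 104.53 TPM (others 89.78 to 91.65), Atp5b at 4164.67 (others 4385.49 to 4425.81), Tpt1 at 2467.49 (others 2210.28 to 2237.09), Ern1 at 14.3 (others 11.22 to 11.45), Sema5a at 28.57 (others 25.47 to 25.83), Dusp6 at 183.1 (others 207.49 to 211.53), Trp53i11 at 49.69 (others 54.67 to 55.41), Slc38a3 at 5.03 (others 4.33 to 4.36) and Yap1 at 53.27 (others 55.43 to 55.63). Angpt1 at 0.05 and Krt15 at 0.06 TPM differ from their companions by the last digits of values near 0. In polyclonal libraries they were Avpr2 at 9.7 (others 10.79 to 10.97), Cdh13 at 2.12 (others 1.45 to 1.54), Camkk1 at 0.79 (others 1.2 to 1.28), Mrpl19 at 50.35 (others 43.63 to 44.51), Krt20 at 0.91 (others 0.76 to 0.78) and Gm10031 at 1 TPM with the others at 0. Gc and Fbln1 each had 1 polyclonal library at 0.03 TPM and the others at 0. Of these genes, Ern1 lost its call without the library that stood apart, WT5 replicate 3.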

How the results depend on the processing

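The 1266 higher and 1002 lower calls stayed within 1.5 times under an unequal-variance test (1198 and 971), pseudocounts of 1 and 0.01, an adjusted p of 0.05, no level filter, a higher minimum of exon bases, a length and GC trend taken out and a fit of all 28 libraries. They did not with a size threshold of 0.5 (2545 and 2639), without centring (1990 and 582), under quantile normalization for the falls (628), in the study's kind of z-scores (270 and 99), without shared stretches (676 and 517), at 1 TPM in both lines for the rises (807) and at 10 TPM or more over the 8 libraries (558 and 558). Calls in all 5 subclones numbered 900 at 1 TPM in both lines and 787 without shared stretches, and those in none 115 without shared stretches. Fewer genes enter the filtered sets, and the cause of the other changes was not tested. Leaving out 1 library at a time gave 1241 to 1272 higher and 984 to 1016 lower, 1451 to 1485 called in all 5 subclones and 226 to 251 in none. Directions reversed only in genes not called under that setting: mt-Co1 at 0.0027 under quantile normalization, Yap1 at 0.0086, Prkaa1 at 0.076 and Pkd2 at 0.0013 without centring, and Prkaa1 at 0.054 with the length and GC trend taken out. Of 95 named genes 42 kept their direction and side of the threshold under every alternative, and 1981 of 2092 results over genes and settings did. Libraries with the same replicate number did not deviate together (correlations -0.07 to 0.00), so the numbers pair nothing; the replicate block gave 1264 higher and 997 lower, and mt-Co1 and mt-Nd4 lost their calls under it. Depth is unknown.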

Other observations

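Outside the lists, several genes of high level shifted far and were called in all 5 subclones; they were picked after their values were seen. Clu, the extracellular chaperone clusterin, rose from 9.51 ± 0.992 to 212 ± 7.56 TPM and stood at 196 to 244 TPM in the subclones. Tns1, a focal adhesion protein, rose from 1.23 ± 0.147 to 168 ± 7.28 TPM, Crip1 from 2.25 ± 1.07 to 136 ± 13.5 TPM and Glul, glutamine synthetase, from 3.85 ± 0.436 to 101 ± 5.49 TPM. Irf8, an interferon regulatory factor best known from myeloid cells, was at 0.497 ± 0.218 and then 16.7 ± 0.847 TPM, while 12 of 35 interferon response genes were lower.

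Large falls outside the lists were picked in the same way. Mal2, a transcytosis protein, was at 512.35, 470.3, 492.52 and 497.03 TPM in polyclonal cells and 58.72, 60.5, 57.9 and 60.2 TPM in WT5, with no overlap. Rab25, a GTPase of apical recycling that lies on chromosome 3, fell from 207 ± 11.6 to 17.4 ± 1.12 TPM. Gja1, the gap junction protein connexin 43, fell from 13.1 ± 0.738 to 0.212 ± 0.0866 TPM and Marcks, an actin-binding protein kinase C substrate, from 53.3 ± 3.26 to 1.64 ± 0.205 TPM. The cytokine genes Lta and Ltb, neighbours on chromosome 17, fell from 9.62 ± 0.843 to 1.08 ± 0.342 TPM and from 10.8 ± 0.885 to 1.42 ± 0.346 TPM.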
